A study of Mus musculus with 4 samples.

Results

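The receptors described here are the targets of amine, acetylcholine, opioid, somatostatin and neuropeptide Y signalling, together with a metabotropic glutamate receptor. They were chosen by gene name alone: every probe set with a single annotated symbol beginning with Htr, Drd, Hrh or Grm and a digit, with Adra, Adrb, Chrm, Chrn, Adora, Oprd, Oprk, Oprm or Sstr, or equal to Npy1r, Npy2r or Npy5r. This gave 49 of 12422 probe sets, which stand for 40 genes. They comprise 13 probe sets for 11 serotonin receptor genes, 3 for 3 dopamine receptors, 2 for 2 histamine receptors and 1 for the metabotropic glutamate receptor Grm8. There were also 2 for 2 adrenergic receptors, 2 for 2 muscarinic receptors, 11 for 8 nicotinic subunits, 3 for 3 opioid receptors, 7 for 5 somatostatin receptors and 5 for 3 neuropeptide Y receptors. No probe set that met the rule belonged to an adenosine or a beta-adrenergic receptor.

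RNA came from hippocampal area CA1 of young male C57BL/6J mice that were handled and otherwise untreated. They were the controls of mice given shocks, and 1 control sample was taken 1, 2, 4 and 6 hours after the last shock of those mice. The 4 samples form 1 group, and samples from shocked mice are not used here. Nothing states how many mice went into each sample, so time, animal, dissection and array cannot be told apart, and the number of arrays limits the precision. Fewer cells of a type and less RNA per cell cannot be told apart either in tissue of this kind. The 1-hour sample stood apart in the Gapdh control of RNA quality. The Gapdh signal from 3' probes over that from 5' probes was 4.52 there. It was 1.18, 1.37 and 1.20 in the 2-, 4- and 6-hour samples. The same ratio for beta-actin differed less, at 2.34, 2.00, 1.80 and 1.76 in the order 1, 2, 4 and 6 hours. Of 9 listed CA1 markers 4 had a probe set, and all 4 were above the floor in every sample, with a summed normalized signal between 5618 and 7116. Later sums over markers are on the same scale.

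Most of these receptors pass through the membrane 7 times and act through heterotrimeric G proteins. Those coupled to Gi/o lower cyclic AMP and open potassium channels, those coupled to Gs raise cyclic AMP, and those coupled to Gq/11 activate phospholipase C. The nicotinic subunits and Htr3a differ, since they form ion channels that acetylcholine or serotonin opens directly. In CA1 such receptors carry the signals of afferents from the raphe nuclei, the septum and the locus coeruleus, and of local interneurons that release somatostatin and neuropeptide Y.

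Signals are the deposited intensities, given in the order 1, 2, 4 and 6 hours. Differences, SDs and ranges are on the log2 scale after quantile normalization, with values under a floor of 35.1 set to it. A probe set at the floor has only an upper bound there, and a receptor listed below it was not detectable rather than absent. Of the 49 receptor probe sets, 31 (63.3%) were above the floor in all 4 samples, against 68.7% of all 12422, and 5 (10.2%) were below it in all 4, against 8.95%. The filter on low mean signal was passed by 23 receptor probe sets of 20 genes (46.9%) and, by its construction, by 60% of all. These 23 are called tested. Of the other 26, 8 were above the floor in all 4 samples and 13 in 1 to 3 samples.

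**Figure D1:**
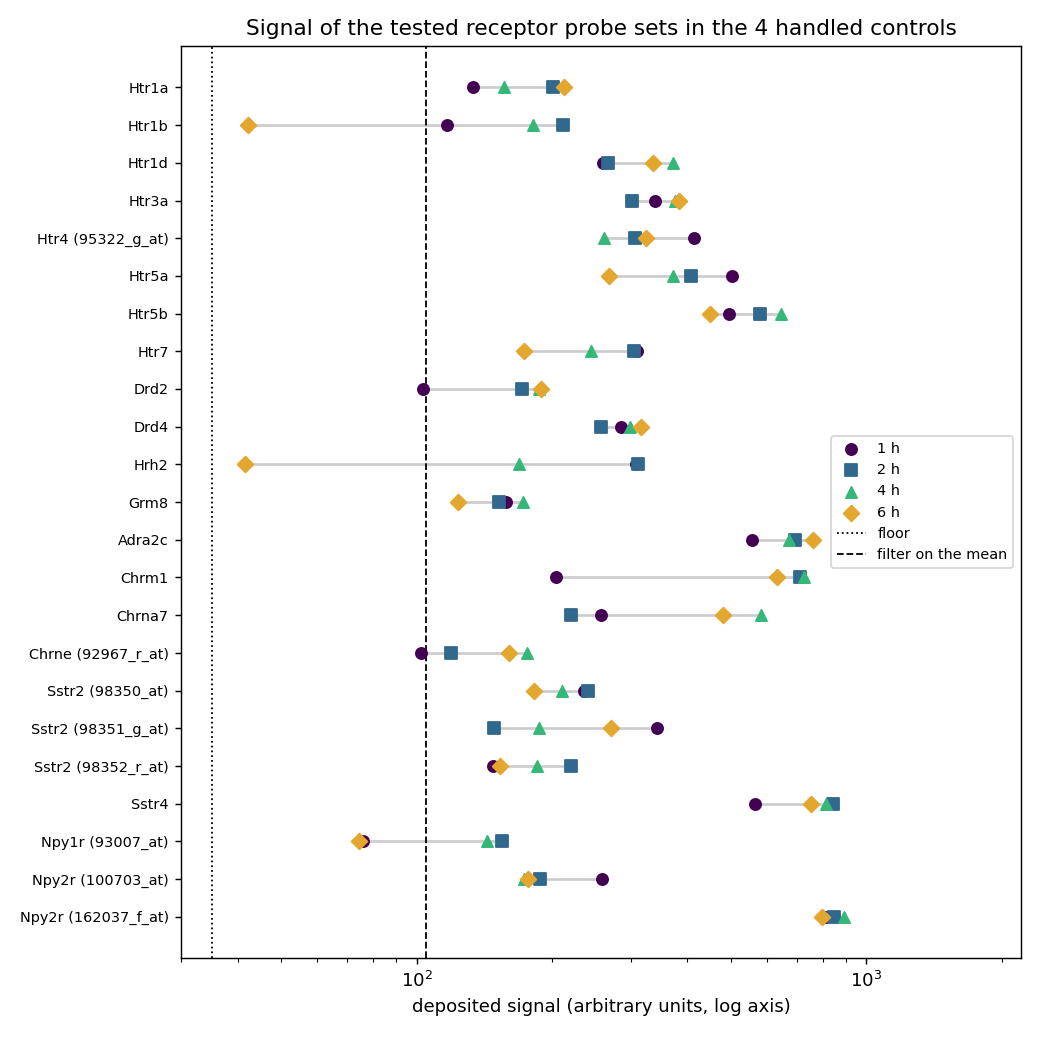
Deposited signal of the 23 tested receptor probe sets on a log axis, a row for each probe set and a symbol for each of the 4 samples, with the floor (dotted) and the filter on the mean (dashed) as lines. Most rows are narrow, while Hrh2 and Htr1b reach down to 41.5 and 42.1 in the 6-hour sample and Chrm1 to 204 in the 1-hour sample.

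The 2-fold counts below describe single samples and carry no test, since each hour has 1 sample. The first comparison asked how steady these receptors were over the handled controls. Hrh2, Htr1b, Chrm1, Chrna7 and 1 of 3 Sstr2 probe sets had a range of 2-fold or more, and the other 18 tested probe sets did not. That is 5 of 23 (21.7%), against 17.9% of the 7453 tested probe sets. Without the 1-hour sample it was 3 (13%, against 9.04% of all), namely Hrh2, Htr1b and Chrna7. Without the 6-hour sample it was also 3 (13%, against 13.5% of all), namely Chrm1, Chrna7 and Sstr2. The median SD was 0.29 for the tested receptors and 0.25 for all tested probe sets (n = 4 samples), and the median range was 0.68 for the receptors and 0.56 for all.

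By hour, the 6-hour sample was most often the lowest for these receptors and the 4-hour sample most often the highest, a count that was not tested. At least 1 sample lay 2-fold or more from the mean of the other 3 in 3 of 23 receptor probe sets (13%), those of Hrh2, Htr1b and Chrm1, against 10.8% of all. Higher by that much than the other samples were 1 receptor probe set at 1 hour (1.78% of all), 2 at 2 hours (1.27%), 0 at 4 hours (1.07%) and 0 at 6 hours (1.49%). Lower by that much were 1 at 1 hour (4.56% of all), 0 at 2 hours (1.72%), 0 at 4 hours (1.93%) and 2 at 6 hours (1.61%). The lowest value of the 4 was in the 1-hour sample for 7 receptor probe sets (29.2% of all), in the 2-hour sample for 5 (22.8%), in the 4-hour sample for 2 (24%) and in the 6-hour sample for 9 (24%). The highest was in the 1-hour sample for 7 (35.1% of all), in the 2-hour sample for 4 (21%), in the 4-hour sample for 9 (23.1%) and in the 6-hour sample for 3 (20.8%).

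**Figure D2:**
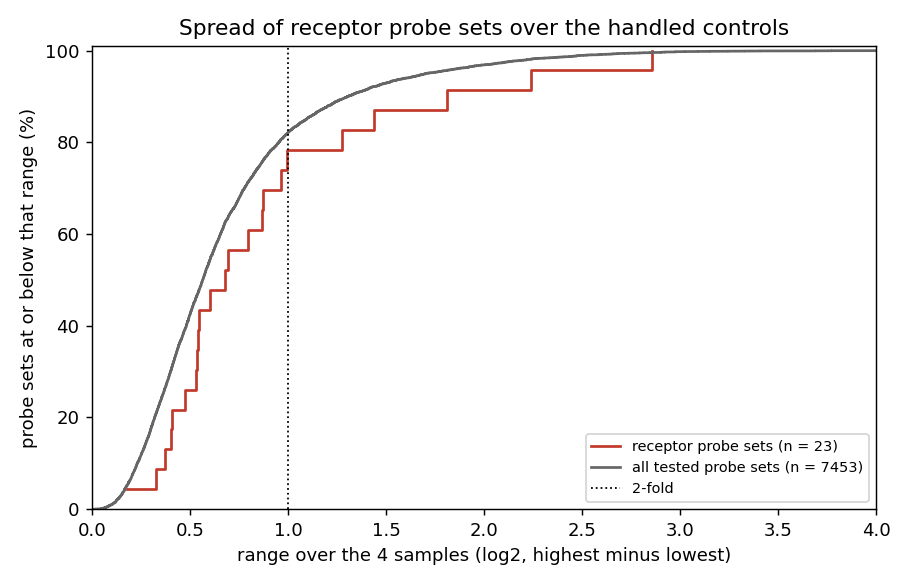
Cumulative share of probe sets (vertical axis, percent) by their range over the 4 samples (horizontal axis, log2), for the 23 tested receptor probe sets and for all 7453 tested ones, with 2-fold as a dotted line. The receptor curve has its median at 0.68 and the other at 0.56, and 5 of the 23 lie beyond 2-fold.

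Hrh2 encodes the histamine H2 receptor, which raises cyclic AMP through Gs and makes CA1 pyramidal neurons more excitable. Its signals were 307, 311, 169 and 41.5, a range of 2.86. The 1- and 2-hour samples were alike and high, and the 6-hour sample stood at -2.55 relative to the mean of the other 3, a 5.85-fold difference. Htr1b encodes a Gi/o-coupled serotonin receptor of axon terminals that restrains transmitter release. Its signals were 117, 212, 182 and 42.1, a range of 2.24, with the 6-hour sample again lowest, at -1.90 relative to the other 3 or 3.74-fold below them. These were the 2 of 23 receptor probe sets (8.70%) that lay 2-fold or more below the other samples at 6 hours, against 1.61% of all. Raising the floor to the 40th percentile left only Hrh2, at -1.28, while Htr1b stood at -0.65. The size of both differences thus depended on the floor. Leaving out the 4-hour sample also kept only Hrh2, at -2.83. Htr1b then stood at -1.83, but its mean lay under the filter. The summed signal of the endothelial markers was also lowest in the 6-hour sample, at 2817, 2730, 2385 and 1856. All 9 had a probe set, and none was below the floor in every sample. They did not run alike. Of the 6 tested ones 4 were lowest at 6 hours, while Flt1 and Pecam1 were lowest at 4 hours. Kdr, under the filter, was lowest at 1 hour. The part of endothelial RNA in these receptor values was not tested.

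Chrm1, the M1 muscarinic receptor and the main Gq/11-coupled acetylcholine receptor of pyramidal neurons, had signals of 204, 710, 727 and 633. The 3 later samples lay close together, and the 1-hour sample stood at -1.72 relative to their mean, a 3.30-fold difference. It was the 1 receptor probe set of 23 (4.35%) that lay 2-fold or more below the others at 1 hour, against 4.56% of all. The Gapdh ratio of 4.52 stands in the same sample, and its part in the Chrm1 value was not tested.

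Chrna7, the subunit of the homomeric alpha7 nicotinic channel found on hippocampal interneurons and pyramidal cells, had signals of 257, 220, 581 and 480. The 1- and 2-hour samples were low and the 4- and 6-hour samples high, with a range of 1.44, and no single sample lay 2-fold from the mean of the other 3. The listed thalamus markers, 6 of 7 with a probe set and none below the floor in every sample, had a summed signal of 1734, 1662, 2300 and 2268. They did not all run alike. Of the 6 trends 5 were positive, and that of Zic1 was negative (264, 222, 216 and 142). Lef1 was low at 2 hours only (484, 148, 546 and 478). Whether neighbouring tissue has a part in the Chrna7 values was not tested. Sstr2, a Gi/o-coupled somatostatin receptor, had 342, 148, 187 and 271 on its 98351_g_at probe set (range 1.27), highest at 1 hour and lowest at 2 hours.

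Promoter sequences of these wide-ranging receptors are shown so that the regulatory DNA can be set beside the values. They were taken from RefSeq (GRCm38.p6), which had entries for 31 of the 40 receptor genes and, of the 5 with wide ranges, for all but Chrm1. Each is the 250 bases before the annotated start, 5' to 3' on the strand of the gene, and for Hrh2 the first of 2 entries is shown. Capitals mark the motifs searched on both strands: the GC box GGGCGG, the cAMP response element TGACGTCA, the E box CANNTG and the TATA box TATAAA. None of these overlapped another motif of a different kind in the sequences shown. Chrna1, the alpha subunit of the muscle nicotinic receptor, is added because of its order over the samples. It and Chrnd, which has no entry, were both highest at 2 and 4 hours and below the floor at 6 hours.
Hrh2: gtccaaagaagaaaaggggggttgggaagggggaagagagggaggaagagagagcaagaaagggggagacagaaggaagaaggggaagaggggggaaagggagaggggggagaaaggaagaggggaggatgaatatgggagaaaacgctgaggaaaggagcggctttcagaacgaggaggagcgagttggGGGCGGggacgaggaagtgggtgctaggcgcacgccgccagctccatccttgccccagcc
Htr1b: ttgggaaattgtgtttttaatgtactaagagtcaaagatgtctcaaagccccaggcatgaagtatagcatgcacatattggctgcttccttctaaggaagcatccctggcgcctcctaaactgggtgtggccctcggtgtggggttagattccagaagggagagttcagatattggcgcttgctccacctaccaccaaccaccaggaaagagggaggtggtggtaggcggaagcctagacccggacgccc
Chrna7: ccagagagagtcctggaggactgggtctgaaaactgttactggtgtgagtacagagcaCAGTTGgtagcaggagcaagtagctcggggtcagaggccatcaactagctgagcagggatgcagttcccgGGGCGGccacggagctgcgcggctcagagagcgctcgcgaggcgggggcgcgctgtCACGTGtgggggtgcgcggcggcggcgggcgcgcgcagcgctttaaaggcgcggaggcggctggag
Sstr2: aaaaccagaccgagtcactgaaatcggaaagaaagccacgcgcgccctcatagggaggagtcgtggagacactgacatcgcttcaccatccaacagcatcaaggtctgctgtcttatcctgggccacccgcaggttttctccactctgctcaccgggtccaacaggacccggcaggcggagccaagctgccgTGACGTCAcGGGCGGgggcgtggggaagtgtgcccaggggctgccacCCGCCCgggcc
Chrna1: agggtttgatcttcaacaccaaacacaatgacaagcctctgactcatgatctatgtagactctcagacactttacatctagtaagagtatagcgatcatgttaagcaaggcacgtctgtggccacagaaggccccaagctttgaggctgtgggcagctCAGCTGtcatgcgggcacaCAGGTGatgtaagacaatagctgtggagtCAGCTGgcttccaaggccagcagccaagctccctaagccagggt
The Hrh2 window lies at chr13:54191883-54192132 on the plus strand, that of Htr1b at chr9:81633833-81634082 on the minus strand and that of Chrna7 at chr7:63212527-63212776 on the minus strand. The Sstr2 window lies at chr11:113619077-113619326 on the plus strand and that of Chrna1 at chr2:73580339-73580588 on the minus strand. Hrh2 held 1 GC box and Htr1b none of the 4 motifs, so the 2 receptors that were 2-fold lower at 6 hours shared none of them in these windows. Sstr2 held 2 GC boxes and 1 cAMP response element, a motif of 1.55% of the 32851 promoters in the table and of 1 of the 31 receptor promoters. Chrna7 held 1 GC box and 2 E boxes, and Chrna1 held 3 E boxes, the motif bound by myogenic factors in muscle. E boxes stood in 18 of 31 receptor promoters (58.1%) and in 66.2% of all promoters, GC boxes in 13 (41.9%) and 32.7%, and TATA boxes in 1 (3.23%) and 12.4%. These matches describe letters in a window and not sites in use.

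The second comparison asked whether any receptor changed steadily with the hour of sampling. None passed the adjusted test. In a limma fit of a linear trend over the 4 samples, with Benjamini-Hochberg adjustment over 7453 probe sets, 0 of 23 receptor probe sets passed an adjusted p of 0.05, and so did 0% of all. The smallest adjusted p was 0.740. At an unadjusted p under 0.05 there were 4 of 23 (17.4%), against 6.24% of all: Hrh2, Htr5a, Htr7 and Chrna7. Without the 1-hour sample there were 2, and without the 6-hour sample there was 1.

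Hrh2 had the lowest fitted change, -2.87 from 1 to 6 hours (SE 0.57, limma adjusted p = 0.740). Leaving out the 6-hour sample gave -0.92, which spans only 1 to 4 hours and is not on the same scale. Raising the floor to the 40th percentile gave -1.58 from 1 to 6 hours. Htr5a, a Gi/o-coupled serotonin receptor, had signals of 503, 407, 372 and 268, each lower than the one before, and a fitted change of -0.86 (SE 0.30, limma adjusted p = 0.740). Htr7, a Gs-coupled serotonin receptor known for a role in circadian timing, had 309, 305, 245 and 173 and a change of -0.86 (SE 0.35). Without the 6-hour sample these 2 changes, then from 1 to 4 hours and so over a shorter span, were -0.41 and -0.36. Chrna7 had the highest fitted change, 1.21 (SE 0.46, limma adjusted p = 0.740). It was 0.93 to 1.29 over the alternatives, where leaving out the 1- or the 6-hour sample shortened the span of hours. Of the 23 trends 10 were positive (43.5%), against 47.2% of all, and the median was -0.03, against -0.02 for all.

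**Figure D3:**
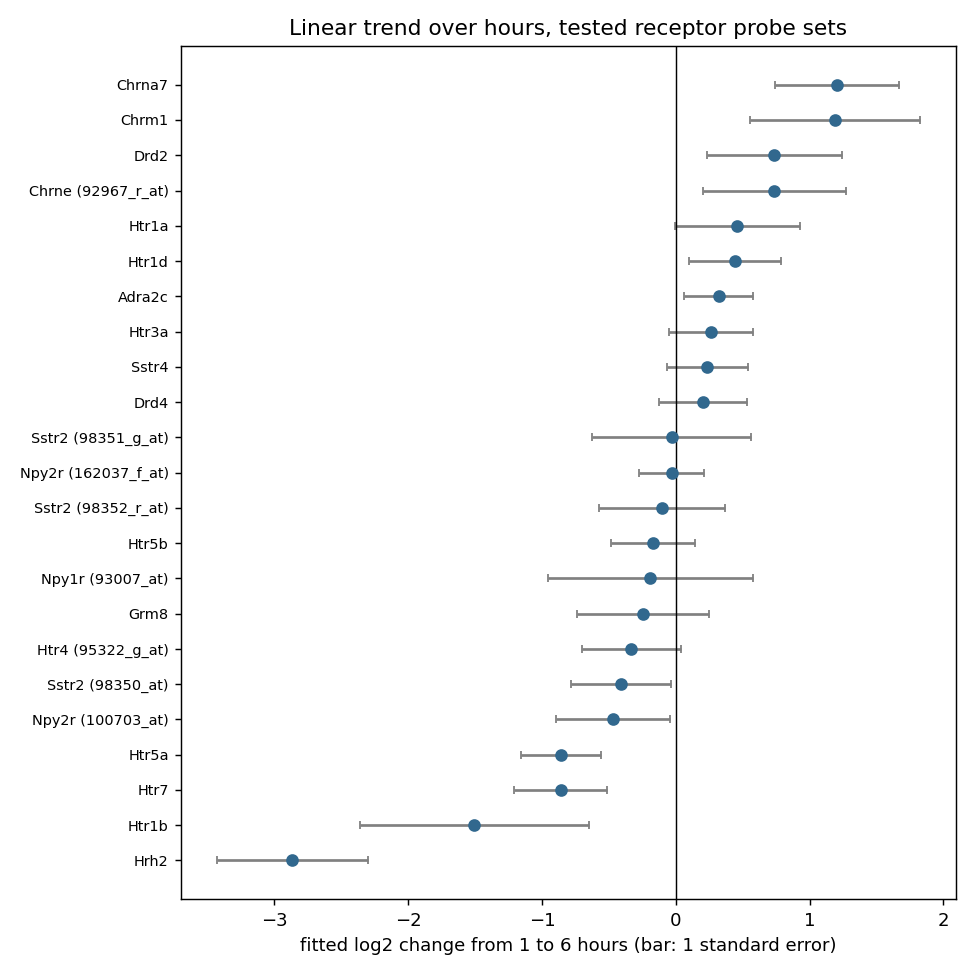
Fitted log2 change from 1 to 6 hours (horizontal axis) of each tested receptor probe set, with bars of 1 standard error from the limma fit over the 4 samples. Hrh2 at -2.87 and Chrna7 at 1.21 lie at the ends, and none of the 23 passed the adjusted test.

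Among the serotonin receptors 8 of 13 probe sets, 1 each for 8 genes, were tested. Htr1a, the Gi/o-coupled autoreceptor of raphe neurons that is also dense on CA1 pyramidal cells, had signals of 134, 201, 156 and 213 (SD 0.30). Its values alternated from sample to sample and its trend was 0.46 (SE 0.47). Htr1d, another terminal receptor coupled to Gi/o, had 260, 266, 372 and 336 (SD 0.26). Htr3a, the channel subunit known from a class of interneurons, had 339, 301, 376 and 383 (SD 0.17), the lowest SD among the 8 tested serotonin receptor probe sets. Htr5b, close to Htr5a in sequence and known to have lost its coding function in humans, had 495, 580, 647 and 448 (SD 0.23). The 6-hour sample was the lowest of the 4 for Htr1b, Htr5a, Htr5b and Htr7, 4 of the 8.

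The other serotonin receptors were dim. Htr1f, coupled to Gi/o, had 45.2, 31.5, 14.0 and 6.30, above the floor in the 1-hour sample only. Htr2b, a Gq/11-coupled receptor best known from heart valves and gut, had 42.0, 18.1, 16.7 and 39.0, above the floor at 1 and 6 hours. Htr2c, the Gq/11-coupled receptor that the choroid plexus carries in large amounts, had 26.9, 20.7, 3.70 and 10, below the floor in all 4 samples. The choroid plexus markers, 6 of 9 with a probe set and all 6 above the floor in every sample, had a summed signal of 3494, 1079, 1334 and 1060. Ttr alone had 2246, 199, 353 and 143, while Igfbp2 was highest at 4 hours (465, 531, 597 and 358). This Htr2c probe set was below the floor even in the 1-hour sample, where that sum was highest.

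Dopamine receptors were represented by Drd2, Drd3 and Drd4, all coupled to Gi/o. Drd2, the autoreceptor and striatal target of antipsychotic drugs, had signals of 103, 171, 187 and 189 (SD 0.41), lowest at 1 hour and close together in the other samples. Drd4, a receptor of cortical and hippocampal interneurons and pyramidal cells, had 284, 257, 298 and 316 (SD 0.14) and was among the steadiest of all 23. Drd3, a receptor of the ventral striatum, had 27.8, 40.5, 34.2 and 40.6, above the floor at 2 and 6 hours only, with a range of 0.27. Of the striatum markers 4 of 8 had a probe set, with a summed signal of 1966 to 2295, and Rxrg was below the floor in every sample. Among adrenergic receptors Adra2c, a Gi/o-coupled receptor that restrains noradrenaline release, had 556, 695, 673 and 762 (SD 0.17). Adra1b, coupled to Gq/11, had 53.4, 50, 53.5 and 38.4, above the floor in every sample but under the filter. Hrh1, the Gq/11-coupled histamine receptor, had 89.3, 122, 106 and 81.8 (SD 0.24), also under the filter. Its range of 0.51 was far smaller than the 2.86 of Hrh2, with 1 probe set for each, and that difference was not tested. Grm8, a presynaptic Gi/o-coupled glutamate receptor, had 158, 153, 173 and 124 (SD 0.20).

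Acetylcholine receptors held both muscarinic and nicotinic genes. Beside Chrm1, described above, Chrm4, the Gi/o-coupled M4 receptor of striatum and septohippocampal terminals, had 46.2, 42.0, 42.5 and 32.3, under the filter. Of the neuronal nicotinic subunits, Chrnb2, the partner of alpha4 in the common high-affinity channel of the brain, had 50, 67.2, 39.8 and 59.1, above the floor in every sample but under the filter. Chrna6, a subunit typical of midbrain dopamine neurons and retinal afferents, had 25.2, 24.2, 154 and 131. It was below the floor at 1 and 2 hours and well above it at 4 and 6 hours, the order in which Chrna7 was low and high. The monoamine neuron markers, 5 of 8 with a probe set and all 5 above the floor in every sample, had a summed signal of 630, 899, 703 and 648, highest at 2 hours. They did not run alike. Slc6a2 and Slc6a4 were highest at 2 hours, Th and Slc6a3 at 4 hours, and Ddc at 1 hour.

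The subunits of the muscle nicotinic receptor, 5 genes on 8 probe sets, were mostly dim, and 1 of the 8 was tested. Chrna1, the alpha subunit that binds acetylcholine, had 63.9, 140, 121 and 17.6. Chrnd, the delta subunit, had 61.6, 129, 126 and 23.9, so both were highest at 2 and 4 hours and below the floor at 6 hours. This likeness was singled out after the values were seen, and no test was made of it. Chrnb1, the beta subunit, had 19.6, 27.3, 69.6 and 14.3 and was above the floor in the 4-hour sample alone. Chrng, the gamma subunit of the fetal receptor and in RefSeq's gene table the next gene to Chrnd on chromosome 1, had 145, 46.4, 63.7 and 95.9 on one probe set and 73.5, 66.6, 111 and 99.6 on the other. Neither followed Chrnd. Chrne, the epsilon subunit of the adult receptor, was tested on its 92967_r_at probe set, with 103, 119, 176 and 160 (SD 0.38). The skeletal muscle markers, all 7 with a probe set and none below the floor in every sample, had a summed signal of 697, 815, 1045 and 973. The 7 markers did not run alike: Ckm, the muscle creatine kinase, had 159, 110.2, 349 and 108, while Myog, the myogenic factor myogenin, had 94.5, 171, 140 and 233. Their part in the Chrna1 and Chrnd values was not tested.

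**Figure D4:**
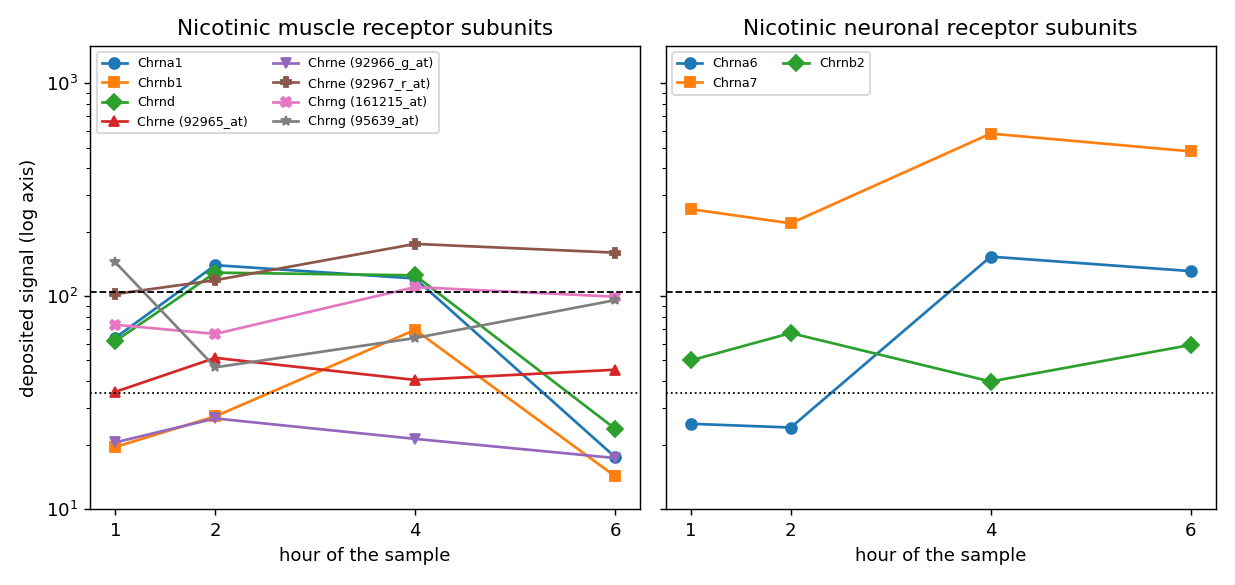
Deposited signal (log axis) of the 11 nicotinic subunit probe sets by hour of the sample, muscle subunits left and neuronal subunits right, with the floor (dotted) and the filter on the mean (dashed) as lines. Chrna1 and Chrnd run together and drop under the floor at 6 hours, and Chrna6 and Chrna7 are both higher at 4 and 6 hours than at 1 and 2 hours.

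Receptors for peptides differed in how well they were measured. All 3 opioid receptors, each coupled to Gi/o, failed the filter. Oprm1, the mu receptor and main target of morphine, had 10.7, 9.60, 10.1 and 8.20, below the floor in every sample. Oprd1, the delta receptor, had 20.2, 30.9, 21.5 and 35.1 and was above the floor in the 6-hour sample alone, while Oprk1, the kappa receptor, had 63.7, 19.5, 85.9 and 64.7, below the floor at 2 hours. Among somatostatin receptors, all coupled to Gi/o, Sstr4, which is prominent on CA1 pyramidal neurons, had 566, 844, 812 and 754 (SD 0.24), lowest at 1 hour. Sstr3, the receptor of neuronal cilia, had 37.3, 44.7, 73.4 and 76.8, and Sstr5, known from pituitary and pancreas, had 57.1, 54.6, 114 and 176. Both were lower in the 1- and 2-hour samples than in the others, at signals under the filter. Sstr1 had 10.8, 14.4, 15.1 and 15.3 and was below the floor throughout. The ligand Sst itself, made by interneurons, had signals of 11953, 8664, 11526 and 9954 (SD 0.14).

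Neuropeptide Y receptors also couple to Gi/o, and Npy2r is the presynaptic one that curbs glutamate release in CA1. The 162037_f_at probe set of Npy2r gave the narrowest range of the 23, with 815, 846, 892 and 796 (range 0.18). The other Npy2r probe set, 100703_at, had 258, 188, 173 and 177 (range 0.60), highest at 1 hour and close together afterwards. Npy1r, a mainly postsynaptic receptor, had 76.0, 155, 144 and 74.4 on 93007_at (SD 0.56), high in the 2- and 4-hour samples. Npy5r had 16.5, 71.1, 18.8 and 37.9, below the floor at 1 and 4 hours. The ligand Npy had 2572, 1646, 2455 and 2171 (SD 0.28).

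Several of these genes were measured more than once, which shows how far a value depends on the probe set. There were 15 probe sets for 6 such genes, and different probe sets gave their highest value in different samples for 5 of the 6, the exception being Npy1r. For Sstr2 all 3 probe sets were tested. The 98350_at set had 236, 240, 211 and 182, and 98352_r_at had 148, 220, 186 and 153, highest at 2 hours where 98351_g_at was lowest. For Htr4, a Gs-coupled receptor that promotes memory in rodents, 95322_g_at was tested, with 414, 306, 262 and 324. The 95321_at set had 7.10, 17.5, 11.1 and 18.5, below the floor in every sample. The 95323_at set had 38, 36.6, 42.6 and 171, so it was highest in the 6-hour sample, where 95322_g_at had a middling value. For Npy1r the second set, 93128_at, had 90.9, 97.8, 55.4 and 64.7 and did not share the high 4-hour value. The Chrne sets 92965_at and 92966_g_at had 35.6, 51.4, 40.5 and 45.2, and 20.6, 26.7, 21.4 and 17.4. In the array's naming the letters g, r and f mark sets with less specific probes, so their signals may include other transcripts.

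**Figure D5:**
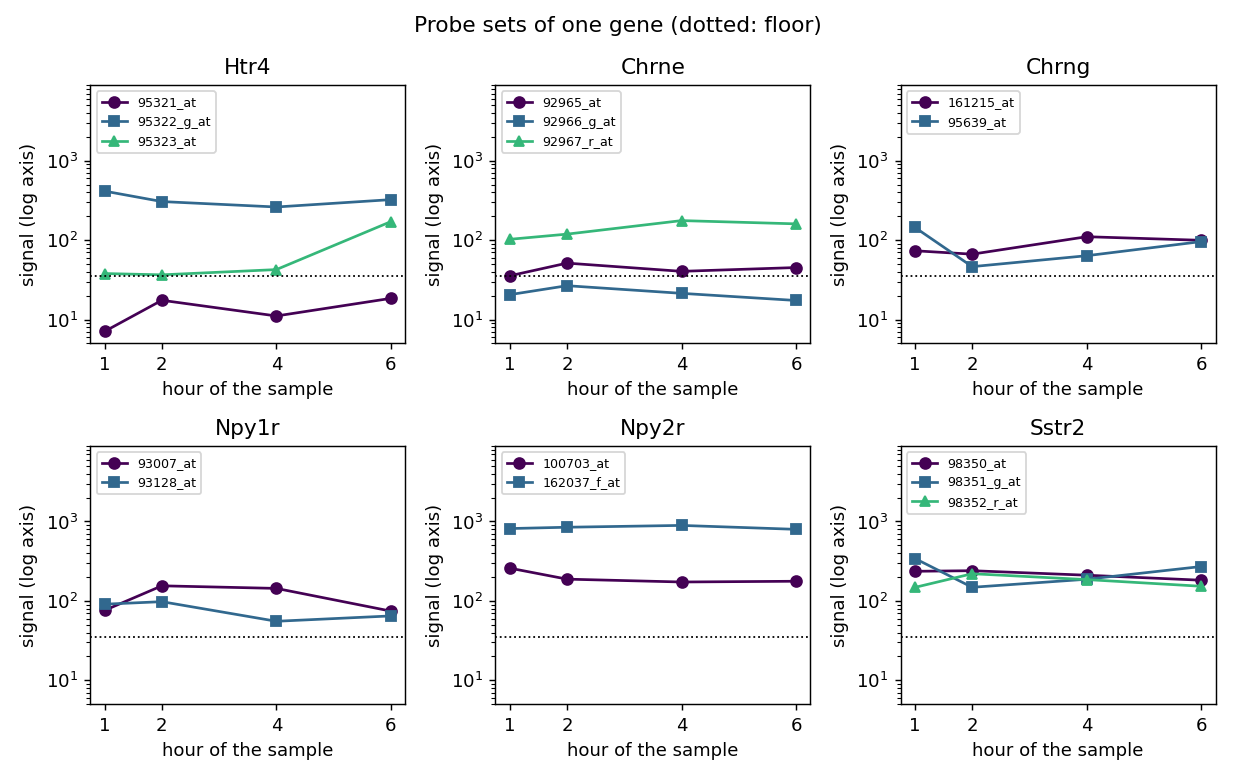
Deposited signal (log axis) by hour of the sample for the 6 receptor genes with several probe sets, a line for each set, with the floor dotted. The lines of Sstr2 cross, and those of Htr4 lie apart, with 95323_at reaching 171 at 6 hours.

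Grouped by signalling class, the 3 tested Gs-coupled receptors, Hrh2, Htr7 and Htr4, all had negative trends (median -0.86), of which none passed the test. Htr4 was tested on 95322_g_at alone, with a trend of -0.33 (SE 0.37). Its 95323_at set, under the filter, was highest at 6 hours. The 15 tested probe sets of Gi/o-coupled receptors had 6 positive and 9 negative trends, with a median of -0.03. The 3 tested channel subunits, Htr3a, Chrna7 and Chrne, all had positive trends (median 0.74). All 3 lay above the mean of the other samples at 4 and at 6 hours. Chrne was tested on 92967_r_at alone. Groups of 3 probe sets allow no more than this description.

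The genes through which these receptors act were read from lists by role, 1 probe set a gene, that with the highest mean. Again 0 passed the adjusted limma test in any list. Of 28 G protein subunit genes 18 were tested, with 12 positive and 6 negative trends (median 0.05) and 1 range of 2-fold or more, that of Gnaz. Gnaz, an alpha subunit of the Gi family, had 128, 328, 581 and 460, lowest at 1 hour. Gnb5, the beta subunit that pairs with RGS proteins, had 937, 493, 733 and 661. Gng10, a gamma subunit, had 1735, 1478, 1302 and 1123, and Gnaq, the alpha subunit that activates phospholipase C, had 124.6, 154.6, 174.8 and 115.3. Of 29 effector genes 15 were tested, with 10 positive and 5 negative trends (median 0.05) and 2 wide ranges. Those were Kcnj9, a potassium channel subunit opened by G proteins, with 189, 598, 293 and 300, and Itpr2, a calcium release channel, with 1091, 887, 538 and 517. Prkar1b, a regulatory subunit of protein kinase A, had 4529, 6934, 8301 and 7968, and Adcy8, a calcium-stimulated adenylyl cyclase, had 295, 179, 280 and 251.

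Of 26 receptor regulators 15 were tested, with 9 positive and 6 negative trends (median 0.16) and 2 wide ranges. Arrb1, the beta-arrestin that ends receptor signalling, had 336, 680, 743 and 768, lowest at 1 hour as Chrm1 was. Homer2, a scaffold of metabotropic glutamate receptors, had 535, 394, 651 and 287. Grk6, a kinase that phosphorylates active receptors, had 840, 1234, 1620 and 1420, and Rgs5, an RGS protein known from pericytes, had 167, 315, 179 and 275. Of 31 genes for ligands and their synthesis, uptake and breakdown 15 were tested, with 8 positive and 7 negative trends (median 0.01) and 4 wide ranges. Th, the rate-limiting enzyme of dopamine and noradrenaline synthesis, had 128, 115, 279 and 41.2, and Slc6a2, the noradrenaline transporter, had 106, 398, 78.8 and 243. Pdyn, the precursor of dynorphins, had 144, 69.3, 157 and 246, and Ada, which breaks down adenosine, had 387, 244, 420 and 691. Of 31 other neuromodulator receptors 10 were tested, with 7 positive and 3 negative trends (median 0.32) and 3 wide ranges. Crhr1, a receptor of corticotropin-releasing hormone, had 144, 67.4, 164 and 269, Bdkrb1, a bradykinin receptor, had 481, 257, 364 and 130, and Tacr2, a tachykinin receptor, had 67.0, 247, 188 and 177. Galr1, a galanin receptor, had 146, 83.0, 116 and 158.

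The other marker lists describe the tissue in which these receptors were measured. Summed signals were 6861 to 7391 for CA3 and CA2 markers (4 of 9 with a probe set, Pcp4 below the floor), 2296 to 2433 for dentate granule cells (5 of 7) and 39144 to 42762 for interneurons (11 of 11). They were 19973 to 23968 for astrocytes (8 of 9), 21090 to 26233 for oligodendrocytes (7 of 8, Cnp below the floor) and 8474 to 9689 for microglia (8 of 8). The oligodendrocyte sum was lowest at 2 hours and highest at 6 hours, where all 6 tested markers lay above the mean of the other samples. Neocortex markers (3 of 7) summed to 1541 to 1928, and the 1 of 6 medial habenula markers with a probe set, Tac2, had 237 to 277.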

How the data were processed

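Values are the intensity of each probe set on a linear scale, as deposited by the authors. The deposited columns share a trimmed mean of 500.3, so the arrays had already been scaled to each other. The scanner software and scan dates were not found in the sources used here. Gene symbols come from the platform's annotation: 10833 of 12422 probe sets without controls had 1 symbol, 396 several and 1193 none.

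Columns were made equal in distribution by quantile normalization. Values below the 20th percentile were raised to it before log2 was taken, and probe sets with a mean at or above the 40th percentile were tested. Limma 3.58.1 in R 4.3.3 fitted hour as a linear term (eBayes with an intensity trend, 2 residual degrees of freedom), two-sided and with Benjamini-Hochberg adjustment. On simulated data the fit was checked for returning the size of the trends put in. How often such trends passed the adjusted test is not given here. P-values compare the fitted trend with the spread of these samples around it, moderated over all tested probe sets. That spread may be technical. Ranges and differences of a single sample from the other 3 were described without a test, and no probe set's level was set against another's. All members are named, with every value for the tested ones, and of each pathway list the 4 tested genes with the widest ranges. The members and lists were chosen with earlier results of these data known. Alternatives were other scalings, floors, filters and time scales, and each sample left out.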

Additional observations from a re-analysis of the deposited data

Results flagged for a closer look

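In 2 of the 31 receptor probe sets that were above the floor in all 4 samples, a single sample lay far from the rest by Dixon's criterion, which divides the gap to the nearest sample by the whole range. Chrm1 was lowest in the 1-hour sample, with a signal of 204 and a ratio of 0.878. The Npy2r probe set 100703_at was highest in the 1-hour sample, with a signal of 258 and a ratio of 0.884. Both passed the filter, so they are 2 of 23 tested receptor probe sets (8.70%), against 6.62% of all tested probe sets above the floor. Chance marks about 1 in 20 such groups. Both values are from the sample with the Gapdh ratio of 4.52, whose part in them was not tested.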

How the results depend on the processing

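No receptor probe set passed the adjusted trend test (limma) under any alternative: values as deposited, equal medians, a floor at the 40th percentile, an offset of 50 in place of a floor, no filter, log2 of the hour, or any sample left out. Of all tested probe sets, 0 passed it under these settings, except for 3 without the 2-hour sample. With a sample left out, 3 to 4 receptor probe sets had a range of 2-fold or more, against 5 with all samples. The share of all was then 8.95% to 13.8%. Those that lay 2-fold from the other samples numbered 3 to 4 (6.17% to 10.4% of all), against 3. Above the floor were 31 to 34 (70.5% to 71.1% of all), against 31. With no filter, which takes in all 49 probe sets, 14 had a range of 2-fold or more (27.6% of all did) and 11 lay 2-fold from the other 3 samples (19.7% of all). By hour, the receptor probe sets that lay 2-fold from the other samples in either direction numbered 2 at 1 hour (1 with the higher floor or the offset, 4 with no filter or without the 2-hour sample) and 2 at 2 hours (0 with the higher floor, the offset or without the 6-hour sample, 6 with no filter). They numbered 0 at 4 hours (3 with no filter, 1 without the 2-hour or the 6-hour sample) and 2 at 6 hours (1 with the higher floor or without the 4-hour sample, 7 with no filter). The cause was not tested. With the floor at the 40th percentile 18 of 49 were above it in every sample, against 51.4% of all. The trends of Hrh2, Htr5a, Htr7 and Chrna7 kept their sign in each setting that was run for them, with adjusted p from 0.208 to 1. No paired analysis was possible because the samples form 1 group. Signals near the floor limit what can be said of the 26 probe sets that were not tested.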
